A study of Mus musculus with 6 samples.

Results

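Transcripts of 10 genes of sphingosine 1-phosphate and lysophosphatidic acid signalling were examined in RNA labelled as that of primary hepatic stellate cells of mice. The genes were taken by symbol (S1pr1, S1pr2, S1pr3, Sphk1, Sphk2, Sgpl1, Spns2, Plpp3, Enpp2 and Lpar6), and all 10 were found among the 22905 gene symbols of the count table. None of the 10 was called between the groups, beside 6.41% of all genes tested, 4 of them (S1pr1, Plpp3, Sgpl1 and Lpar6) stood at 56.5 FPKM (read counts scaled to gene length and library total) or more in each library, and for 8 of them the 95% interval of the difference lay within a 2-fold change in either direction, as it did for 63.2% of all genes tested. Of 67 other tested genes of these pathways 5 were called, a share of 7.46% that is near that of all genes. Among them was the lysophosphatidic acid receptor gene Lpar1, 4.71-fold higher in DOX libraries. Its call was lost when DOX replicate 1, PBS replicate 2 or PBS replicate 3 was left out. Without PBS replicate 2 or 3, no gene of the whole table was called. All tested markers of macrophages, lymphocytes, neutrophils, hepatocytes and cholangiocytes had positive log2 fold changes of DOX over PBS. EdgeR called 3 of 16, 3 of 9, 3 of 4, 0 of 11 and 1 of 5 of them, in that order. Of 22 endothelial markers 17 had negative log2 fold changes, and 2 were called, both lower. Endothelial Cdh5 averaged 617 FPKM and macrophage Mpeg1 384 FPKM. The stellate markers Lrat, Reln, Des and Dcn averaged 0.410, 5.63, 3.85 and 249.6 FPKM. Levels are therefore those of a mixture and are not assigned to a cell type.

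Sphingosine 1-phosphate and lysophosphatidic acid are lipid mediators that act outside the cell on families of G protein-coupled receptors. Sphingosine kinases make sphingosine 1-phosphate inside the cell, a transporter releases it, and a lyase or lipid phosphatases remove it, while the secreted enzyme autotaxin makes lysophosphatidic acid from lysophosphatidylcholine. In the liver the receptor S1PR1 is known from sinusoidal endothelium, and receptors of both lipids have been studied for their part in migration and contraction of stellate cells.

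There were 3 libraries labelled DOX and 3 labelled PBS. All animals of both groups carried the genotype BucheKI/KI-Hep and had received CCl4 (carbon tetrachloride, a liver toxin that causes fibrosis), and the series describes butyrylcholinesterase over-expressed in hepatocytes before stellate cells were taken. The promoter that drives the introduced gene, the age of the mice and whether animals were pooled are not given in the sources used, and neither DOX in mice without the introduced gene nor mice without CCl4 were analysed here, so an action of DOX and one of the introduced gene cannot be told apart. The labels do not say whether replicates were separate animals, and p-values therefore cover the spread between these 6 libraries, part of which may be technical.

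Each library held between 36220282 and 37707364 counted reads. Bche, the manipulated gene, had 35.8, 16.4 and 99.3 CPM (counts scaled to library size, with TMM factors) in DOX replicates 1, 2 and 3, against 0.212, 0.680 and 0.354 CPM in PBS replicates 1, 2 and 3, and this difference was called at a log2 fold change of 6.91 with an SE of 0.85 (edgeR adjusted p = 0.0206). That call did not hold in limma-voom or when PBS replicate 2 or 3 was left out. With either of these PBS libraries left out, no gene of the whole table was called. The summed hepatocyte markers had 846, 282 and 3444 CPM in DOX replicates 1, 2 and 3, the same order as Bche. In PBS replicates 1, 2 and 3 they had 159, 332 and 398 CPM, an order unlike that of Bche. The part of hepatocyte RNA in the values of Bche was not tested. Stellate markers were present at widely differing levels per length. Averages over the 6 libraries were 0.410 FPKM for Lrat, 5.63 FPKM for Reln and 3.85 FPKM for Des, the defining markers. Dcn, Ecm1 and Col3a1, the highest of the same list, averaged 249.6 FPKM, 97.1 FPKM and 41.0 FPKM. The remaining markers of that list ran from 0.964 FPKM for Hand2 to 24.4 FPKM for Col1a1. Those outside the defining markers were named after their values were seen. Markers of other cells were present as well, with averages of 617 FPKM for Cdh5, 237 FPKM for Pecam1 and 38.1 FPKM for Stab2 of endothelial cells, and of 384 FPKM for Mpeg1, 98.9 FPKM for Csf1r and 93.0 FPKM for Adgre1 of macrophages. The values below describe each library's RNA as a mixture and are not assigned to a cell type. In such bulk RNA, fewer cells of a type and less RNA per cell cannot be told apart.

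The upstream windows of the genes show how differently their starts are built. Windows of 300 bases, from 250 before to 50 after a transcription start, were available for 8 of the 10 genes from RefSeq (GRCm38.p6), and 3 are printed: that of S1pr3, the gene whose groups did not overlap after TMM scaling, and those of Sgpl1 and Lpar6, which hold 38 and 1 CpG dinucleotides and belong to the 4 most abundant of the genes. Capitals mark GGGCGG (the GC box), searched on both strands with TATAAA (the TATA box). The sequences run 5′ to 3′ in the direction of the gene, for S1pr3 from chr13:51408368-51408667 (plus strand), for Sgpl1 from chr10:61147635-61147934 (minus strand) and for Lpar6 from chr14:73237641-73237940 (plus strand).
S1pr3: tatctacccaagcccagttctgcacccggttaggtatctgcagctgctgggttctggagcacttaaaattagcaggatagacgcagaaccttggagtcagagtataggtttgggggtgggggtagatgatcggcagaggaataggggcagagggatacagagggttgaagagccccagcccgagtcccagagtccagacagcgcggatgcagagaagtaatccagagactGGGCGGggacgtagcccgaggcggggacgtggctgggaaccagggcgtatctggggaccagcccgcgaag
Sgpl1: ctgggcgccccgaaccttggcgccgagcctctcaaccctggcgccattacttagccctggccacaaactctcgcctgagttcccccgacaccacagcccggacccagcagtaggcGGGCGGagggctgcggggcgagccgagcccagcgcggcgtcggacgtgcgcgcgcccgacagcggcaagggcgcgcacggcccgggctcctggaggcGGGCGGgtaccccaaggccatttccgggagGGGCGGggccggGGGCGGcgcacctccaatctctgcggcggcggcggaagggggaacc
Lpar6: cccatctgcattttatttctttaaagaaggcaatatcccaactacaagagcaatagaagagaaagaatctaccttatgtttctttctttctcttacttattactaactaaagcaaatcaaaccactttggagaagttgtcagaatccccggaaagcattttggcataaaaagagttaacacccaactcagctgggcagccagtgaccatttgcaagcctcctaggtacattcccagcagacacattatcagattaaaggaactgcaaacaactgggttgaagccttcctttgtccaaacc
The Sgpl1 window has 4 GC boxes and the S1pr3 window 1, while the Lpar6 window has neither motif. A GC box was found in at least 1 window of 5 of the 8 genes and in 35.7% of all 32851 windows of this length. A TATA box was found in a window of 1 of the 8 genes, Sphk1, and in 13.6% of all windows. Sphk1 and Sphk2 had several windows each, so counts by gene and shares of single windows are unlike measures. A match is a description of letters and not a binding site.

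Per length of transcript, S1pr1 had the highest mean of the genes, with 188, 200 and 209 FPKM in DOX replicates 1, 2 and 3 and 218, 210 and 268 FPKM in PBS replicates 1, 2 and 3. FPKM values here are the deposited ones, scaled by library totals alone. Averaged over the 6 libraries, the order of levels was S1pr1 at 215 FPKM, Plpp3 at 169, Sgpl1 at 115, Lpar6 at 64.4, Sphk2 at 18.3, S1pr3 at 11.2, S1pr2 at 11.1, Sphk1 at 2.37, Enpp2 at 1.71 and Spns2 at 1.02 FPKM. Neighbours in this order whose ranges over the libraries overlapped were S1pr1 and Plpp3, Plpp3 and Sgpl1, S1pr3 and S1pr2, Sphk1 and Enpp2, and Enpp2 and Spns2, while the ranges did not meet between Sgpl1 and Lpar6, Lpar6 and Sphk2, Sphk2 and S1pr3, or S1pr2 and Sphk1. S1pr1 stood above at least 98.2% of the detected genes of each library, and Spns2 above 42.1% to 46.2%.

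**Figure D1:**
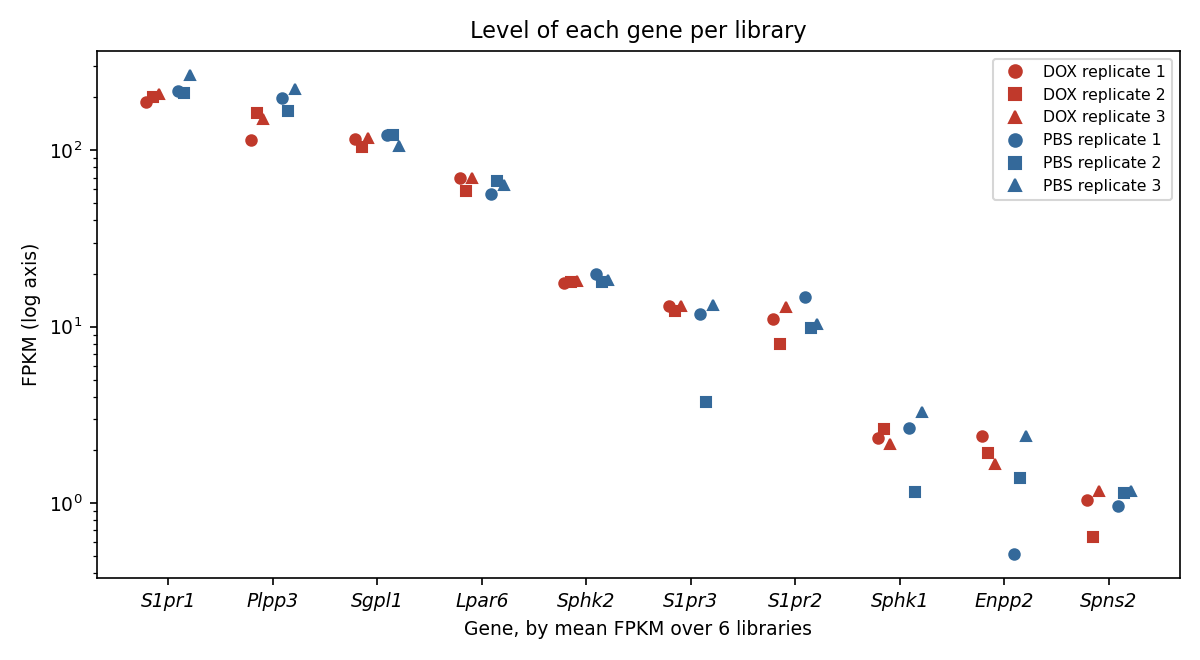
FPKM of each gene (log axis) in every library, ordered by the mean over 6 libraries; red symbols are DOX and blue symbols PBS, and circle, square and triangle are replicates 1, 2 and 3. S1pr1 is near the top at 188 to 268 FPKM and Spns2 at the bottom at 0.643 to 1.17 FPKM, and the PBS replicate 2 symbol stands low for S1pr3 and Sphk1.

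Between the groups, 0 of the 10 genes passed an edgeR quasi-likelihood adjusted p of 0.05, where 6.41% of the 14439 genes tested did (926 genes, with 4.38% higher and 2.04% lower in DOX). All 10 genes passed the filter on low counts. None of the 10 had an unadjusted p under 0.05 in edgeR, against 28.7% of all genes, and DESeq2 and limma-voom also called 0 of them, against 18.4% and 5.97% of all genes. The adjusted p of the 10 genes ran from 0.221 for Lpar6 to 0.987 for S1pr2. Their log2 fold changes of DOX over PBS were positive for 6 and negative for 4, with a median of 0.07 beside -0.01 over all genes tested. A p that misses the threshold does not show equal levels, so the 95% intervals of the fold changes are given below: for 8 of the 10 genes the interval lay between -1 and 1 on the log2 scale, as it did for 63.2% of all genes tested, and S1pr3 and Enpp2 were the exceptions.

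**Figure D2:**
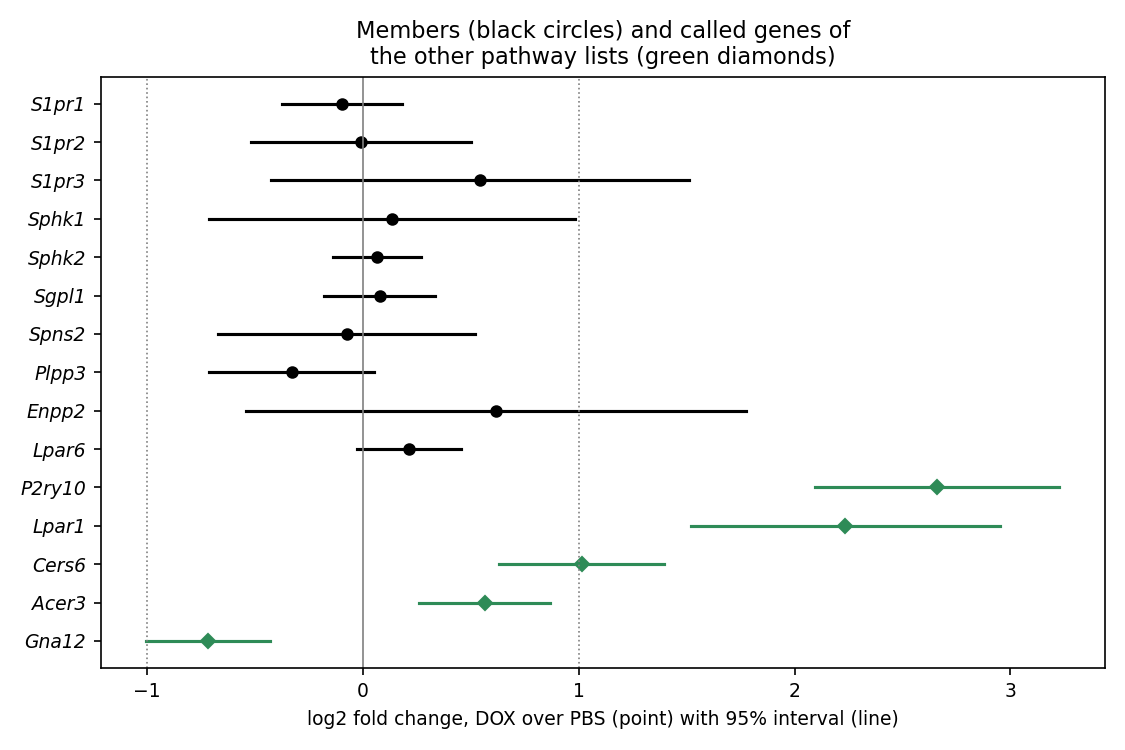
Log2 fold change of DOX over PBS with its 95% interval for the 10 genes (black circles) and for the 5 called genes of the other pathway lists (green diamonds); dotted lines mark a 2-fold change. The black intervals all span 0, and those of S1pr3 and Enpp2 reach beyond 1.

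The receptors for sphingosine 1-phosphate were dominated by S1pr1. S1pr1, which couples to inhibitory G proteins and keeps endothelial junctions closed, had 616, 644 and 628 CPM in DOX replicates 1, 2 and 3, against 646, 604 and 769 CPM in PBS replicates 1, 2 and 3. The groups overlapped, with PBS replicate 3 alone above the rest. The log2 fold change was -0.10 (95% interval -0.37 to 0.18, edgeR adjusted p = 0.631). Of the summed FPKM of S1pr1, S1pr2 and S1pr3, the share of S1pr1 was 88.6%, 90.8% and 88.9% in the DOX libraries in replicate order, against 89.2%, 93.9% and 91.9% in the PBS libraries. Its gene lies on chromosome 3 from 115710433 to 115715072 (GRCm38, minus strand).

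S1pr2, a receptor that signals through G12 and G13 proteins among others, had 46.8, 33.3 and 50.6 CPM in DOX replicates 1, 2 and 3, against 56.3, 36.5 and 38.5 CPM in PBS replicates 1, 2 and 3. Low and high libraries occurred in both groups, and the log2 fold change was -0.0068 (95% interval -0.52 to 0.50, edgeR adjusted p = 0.987). Per length, S1pr2 reached 5.86%, 3.99% and 6.21% of S1pr1 in the DOX libraries in replicate order, against 6.72%, 4.67% and 3.87% in the PBS libraries, so this ratio overlapped between the groups too.

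S1pr3, a receptor that couples to Gi, Gq and G12/13 proteins, had 63.8, 58.6 and 58.0 CPM in DOX replicates 1, 2 and 3, against 51.7, 16.0 and 56.0 CPM in PBS replicates 1, 2 and 3. It was the 1 of 10 genes whose groups did not overlap in CPM, which held for 34.6% of all genes tested (16.9% with DOX higher, as here). The gap between the lowest DOX and the highest PBS library was small, and in the deposited FPKM, without TMM factors, the groups overlapped, with 12.3 to 13.1 FPKM in DOX and 3.76 to 13.2 FPKM in PBS. The log2 fold change was 0.54 (SE 0.41, 95% interval -0.42 to 1.51, edgeR adjusted p = 0.424). It rested on PBS replicate 2, without which it was 0.16 (edgeR adjusted p = 0.408).

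Of the kinases that make sphingosine 1-phosphate, Sphk2 was the more abundant in every library, and neither was called between the groups. Sphk2, the kinase found in nucleus and mitochondria, had 83.1, 82.0 and 77.2 CPM in DOX replicates 1, 2 and 3, against 83.7, 73.0 and 74.9 CPM in PBS replicates 1, 2 and 3. This was the least variable of the genes, with a coefficient of variation of 4.27% in FPKM over the 6 libraries, and its log2 fold change was 0.06 (95% interval -0.14 to 0.27, edgeR adjusted p = 0.660). Sphk1, the cytosolic kinase induced by growth factors, had 10.8, 11.9 and 9.22 CPM in DOX replicates 1, 2 and 3, against 11.1, 4.66 and 13.3 CPM in PBS replicates 1, 2 and 3. PBS replicate 2 was again the lowest library and PBS replicate 3 the highest, so that the DOX libraries lay within the PBS range. The log2 fold change of Sphk1 was 0.14 (95% interval -0.71 to 0.98, edgeR adjusted p = 0.836), and it was -0.20 without PBS replicate 2. Per length, Sphk2 made up 88.4%, 87.2% and 89.2% of the kinase transcripts in the DOX libraries in replicate order, against 88.2%, 94.0% and 84.8% in the PBS libraries. The DOX shares lay within the range of the PBS shares.

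Sgpl1, the lyase that cleaves sphingosine 1-phosphate irreversibly, was well expressed in every library, with 539, 475 and 499 CPM in DOX replicates 1, 2 and 3, against 510, 495 and 429 CPM in PBS replicates 1, 2 and 3. Its log2 fold change was 0.08 (95% interval -0.18 to 0.33, edgeR adjusted p = 0.676). Spns2, the transporter that exports sphingosine 1-phosphate from endothelial cells, had 4.54, 2.76 and 4.67 CPM in DOX replicates 1, 2 and 3, against 3.79, 4.34 and 4.47 CPM in PBS replicates 1, 2 and 3. DOX replicate 2 was the lowest, and the groups overlapped (log2 fold change -0.08, 95% interval -0.67 to 0.52, edgeR adjusted p = 0.873).

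On the side of lysophosphatidic acid, Enpp2 encodes autotaxin. It had 10.3, 8.17 and 6.60 CPM in DOX replicates 1, 2 and 3, against 2.01, 5.23 and 9.09 CPM in PBS replicates 1, 2 and 3. The PBS libraries spread more widely than the DOX libraries, and PBS replicate 3 lay among the DOX values. The log2 fold change was 0.62 (SE 0.49, 95% interval -0.54 to 1.77, edgeR adjusted p = 0.448), and it ran from 0.22 without PBS replicate 1 to 1.20 without PBS replicate 3. Enpp2 was the most variable of the 10 genes, with a coefficient of variation of 41.5% in FPKM.

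Plpp3, a membrane phosphatase that removes the phosphate of both lipids at the cell surface, had 393, 547 and 472 CPM in DOX replicates 1, 2 and 3, against 613, 498 and 663 CPM in PBS replicates 1, 2 and 3. DOX replicate 1 was the lowest library, and DOX replicate 2 lay above PBS replicate 2. The log2 fold change was -0.33 (SE 0.16, 95% interval -0.71 to 0.05, edgeR adjusted p = 0.228), and it was negative in all 18 alternatives but called in none of them. Per length, Enpp2 amounted to 2.08%, 1.18% and 1.11% of Plpp3 in the DOX libraries in replicate order, against 0.260%, 0.831% and 1.09% in the PBS libraries. The DOX values of this ratio lay above the PBS values, by a narrow gap at PBS replicate 3. The mean difference was 1.18 on the log2 scale, or 0.56 without PBS replicate 1. The SD of the log2 ratio was 0.50 in DOX and 1.10 in PBS. Of all single genes tested, 34.6% had groups that did not overlap in CPM, and no such share was taken over pairs of genes. The ratio was not tested, since the genes were chosen with earlier results known.

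Lpar6, a receptor for lysophosphatidic acid that couples to G13 proteins, had 187, 155 and 171 CPM in DOX replicates 1, 2 and 3, against 137, 157 and 149 CPM in PBS replicates 1, 2 and 3. DOX replicate 2 lay just below PBS replicate 2, and the remaining DOX libraries were above every PBS library. The log2 fold change was 0.21 (SE 0.10, 95% interval -0.03 to 0.45, edgeR adjusted p = 0.221), the lowest p of the 10 genes.

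The genes lie on separate parts of the genome. In GRCm38 with GENCODE M21, S1pr2 lies on chromosome 9 from 20962361 to 20976781, S1pr3 on chromosome 13 from 51408639 to 51422797, and Lpar6 on chromosome 14 from 73237895 to 73243294. The kinase genes Sphk1 and Sphk2 lie on chromosome 11 from 116530925 to 116536674 and on chromosome 7 from 45709467 to 45718002, the lyase gene Sgpl1 on chromosome 10 from 61098642 to 61147703, and the transporter gene Spns2 on chromosome 11 from 72451638 to 72489904. Plpp3 lies on chromosome 4 from 105157347 to 105232764 and Enpp2 on chromosome 15 from 54838901 to 54952892.

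Some of these genes share bases with neighbours on the opposite strand, and no source used here says whether reads were counted by strand. Sphk2 shares 13% of its exon bases with Dbp and 8.97% with the ribosomal protein gene Rpl18. Lpar6 lies inside Rb1 and shares 7.56% of its exon bases with it. Smaller stretches of Spns2 (3.21%, with Mybbp1a), Sphk1 (4.02%), Enpp2 (5.97%) and S1pr3 (1.01%) are shared with genes on the other strand. Dbp averaged 14.6 ± 3.39 CPM in DOX and 23.1 ± 4.57 CPM in PBS (SD, n = 3 each), with groups that did not overlap and a log2 fold change of -0.67 (edgeR adjusted p = 0.0990, DESeq2 adjusted p = 0.0368). Mybbp1a averaged 292 ± 74.8 CPM in DOX and 403 ± 32.1 CPM in PBS (SD, n = 3 each), also without overlap (log2 fold change -0.46, edgeR adjusted p = 0.164), beside Spns2 at 3.99 CPM in DOX and 4.20 CPM in PBS. Rpl18 had a mean of 351 CPM in DOX and 368 CPM in PBS, and Rb1 had 39.9 CPM in DOX and 41.0 CPM in PBS, both with overlapping groups. The part of these neighbours in the counts of the members was not tested.

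S1pr3, Sphk1 and Enpp2, the 3 genes that varied most between libraries, each had their lowest value in a PBS library and are set beside the stellate markers here. The summed level of the 15 stellate markers was 1584, 1697 and 1080 CPM in DOX replicates 1, 2 and 3, against 1016, 924 and 2146 CPM in PBS replicates 1, 2 and 3, so its lowest value, like that of S1pr3 and Sphk1, was in PBS replicate 2. The largest part of this sum was Dcn, named after its values were seen, at 415 to 686 CPM in DOX and 353 to 762 CPM in PBS. In PBS replicate 1, S1pr3 stood at 51.7 CPM. Of the defining markers, Reln had 37.8 CPM and Des 7.61 CPM in PBS replicate 2, the lowest of the 6 libraries for each. None of the 15 stellate markers was called by edgeR (1 at an unadjusted p under 0.05) or by limma-voom. DESeq2 called 1, Acta2, also named after its values were seen, as lower in DOX (DESeq2 adjusted p = 0.00828). The part of stellate cell content in these values was not tested.

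**Figure D3:**
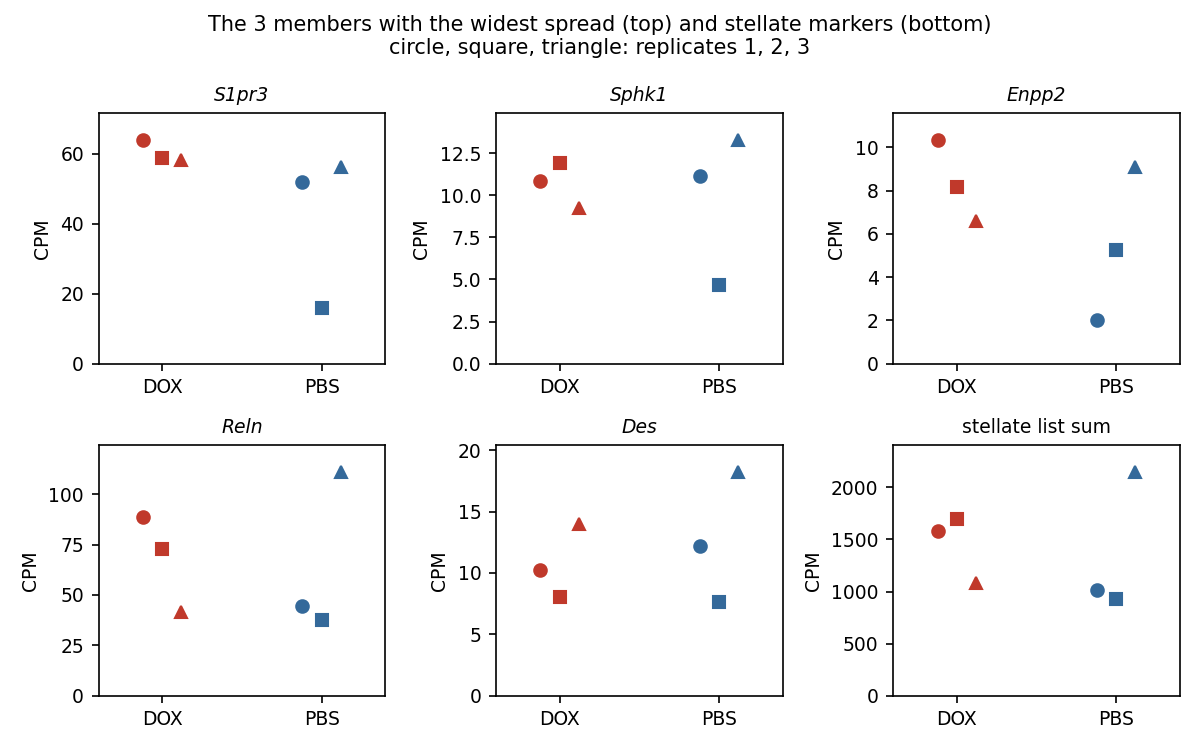
CPM per library of S1pr3, Sphk1 and Enpp2 (top) and of the stellate markers Reln and Des and the summed stellate list (bottom), with DOX in red and PBS in blue; circle, square and triangle are replicates 1, 2 and 3. PBS replicate 2 (square) is the lowest point for S1pr3 at 16.0 CPM and for Sphk1 at 4.66 CPM, and PBS replicate 1 (circle) for Enpp2 at 2.01 CPM.

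Since S1pr1, Plpp3 and Spns2 are also known from endothelial cells, the endothelial markers are given beside them. The 22 endothelial markers summed to 6938 to 8331 CPM in DOX and 7995 to 9622 CPM in PBS. By edgeR 2 of the 22 were called, both lower (Tek and Ptprb, named after their values were seen), and 9 had an unadjusted p under 0.05. The median of the list was -0.24 on the log2 scale. DESeq2 called 9 of the 22, with 2 higher and 7 lower, and the higher ones were Dnase1l3 and Clec4g, also named after their values were seen (DESeq2 adjusted p = 0.00227 and 0.0412). With the summed endothelial markers in place of the library size, no member was called either, and the log2 fold change was 0.11 for S1pr1 and -0.13 for Plpp3 (edgeR adjusted p = 0.751 and 0.750). Macrophage markers summed to 8006 to 14746 CPM in DOX and 4402 to 6782 CPM in PBS. All 16 of them had a positive log2 fold change, with a median of 1.26, and in 13 the groups did not overlap. EdgeR called 3 of the 16 higher (13 at an unadjusted p under 0.05), limma-voom 4 and DESeq2 12. Of the defining ones, Mpeg1, Csf1r and Adgre1 had log2 fold changes of 0.73, 1.14 and 0.99 (edgeR adjusted p = 0.0890, 0.0630 and 0.0820), each without overlap. Hepatocyte markers, at 282 to 3444 CPM in DOX and 159 to 398 CPM in PBS, were called in 0 of 11 cases by edgeR (9 at an unadjusted p under 0.05) and by limma-voom, and in 4 by DESeq2. The defining ones, Alb, Apoa1 and Ttr, had log2 fold changes of 2.34, 2.55 and 2.71 with overlapping groups (edgeR adjusted p = 0.158, 0.108 and 0.166).

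Among 76 other genes of these pathways, taken from lists of receptors, enzymes and transducers, 67 could be tested, and edgeR called 4 higher and 1 lower in DOX. This share of 7.46% stands beside 6.41% over all genes. DESeq2 called 17 of the 67, with 9 higher and 8 lower, beside 18.4% over all genes, and limma-voom called 4. The receptors for lysophosphatidic acid and related lipids besides Lpar6 held 2 of the 5. Lpar1, the widely studied receptor of fibroblasts and other mesenchymal cells, had 18.2, 12.7 and 9.11 CPM in DOX replicates 1, 2 and 3, against 2.47, 2.43 and 3.59 CPM in PBS replicates 1, 2 and 3. The lowest DOX library was well above the highest PBS library, and the log2 fold change was 2.24 with an SE of 0.30 (edgeR adjusted p = 0.0233). P2ry10, a lysophosphatidylserine receptor of immune cells, had 9.19, 7.04 and 5.81 CPM in DOX replicates 1, 2 and 3, against 1.19, 1.15 and 1.14 CPM in PBS replicates 1, 2 and 3. It rose 6.32-fold, a log2 fold change of 2.66 with an SE of 0.24 (edgeR adjusted p = 0.0183). Its close paralog P2ry10b, named after its value was seen, had 14.4, 13.7 and 9.17 CPM in DOX replicates 1, 2 and 3, against 5.46, 13.2 and 5.46 CPM in PBS replicates 1, 2 and 3, and reads may be split between the pair. Per length, both called receptors were low beside Lpar6 at 64.4 FPKM, with means of 1.23 FPKM for Lpar1 and 1.42 FPKM for P2ry10 over all libraries.

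Leaving out DOX replicate 1, PBS replicate 2 or PBS replicate 3 ended the call for Lpar1, at log2 fold changes of 1.95, 2.14 and 2.44 (edgeR adjusted p = 0.0562, 0.0754 and 0.0751, in that order). That for P2ry10 was lost without PBS replicate 2 or 3 (edgeR adjusted p = 0.0663 and 0.0634), settings in which no gene of the whole table passed. Lymphocyte markers were also higher in DOX, with 3 of 9 tested members called by edgeR. They summed to 25.2, 12.7 and 20.2 CPM in DOX replicates 1, 2 and 3. In PBS replicates 1, 2 and 3 the sums were 7.42, 4.63 and 3.21 CPM. These sums shared the direction between groups with both receptors. Their order of libraries differed from that of both receptors within DOX, and from that of Lpar1 within PBS. The macrophage markers given above were higher in DOX too. The defining lymphocyte markers were low. Ncr1 had 1.79, 0.760 and 1.56 CPM in DOX replicates 1, 2 and 3, against 0.345, 0.366 and 0.0758 CPM in PBS replicates 1, 2 and 3, without overlap (edgeR adjusted p = 0.0608, DESeq2 adjusted p = 0.00437). Cd3e had 0.845 to 2.11 CPM in DOX and 0.126 to 1.43 CPM in PBS, and Cd79a 0.338 to 1.08 CPM in DOX and 0.212 to 0.340 CPM in PBS. DESeq2 called 6 of the 9 lymphocyte markers, all higher in DOX. EdgeR called 3 of 4 tested neutrophil markers higher. The neutrophil list summed to 152, 134 and 106 CPM in DOX replicates 1, 2 and 3. In PBS replicates 1, 2 and 3 it summed to 58.8, 42.4 and 27.0 CPM, and P2ry10 had the same order of libraries within each group. Most of this sum was Csf3r, named after its values were seen, at 85.9 to 144 CPM in DOX and 24.7 to 53.5 CPM in PBS. The defining neutrophil genes Ly6g and Retnlg were too low to be tested. Of 5 cholangiocyte markers edgeR called 1, Epcam, higher (edgeR adjusted p = 0.0470), while the other defining ones, Krt19 and Krt7, had log2 fold changes of 1.04 and 1.20 (edgeR adjusted p = 0.248 and 0.196). The part of these cell types in the rise of Lpar1 and P2ry10 was not tested. Of the remaining 5 tested receptors of this list, Gpr132 had 14.4, 14.1 and 14.1 CPM in DOX replicates 1, 2 and 3, against 12.8, 5.91 and 4.27 CPM in PBS replicates 1, 2 and 3 (edgeR adjusted p = 0.175), and Lpar3 and Gpr34 were too low to be tested.

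**Figure D4:**
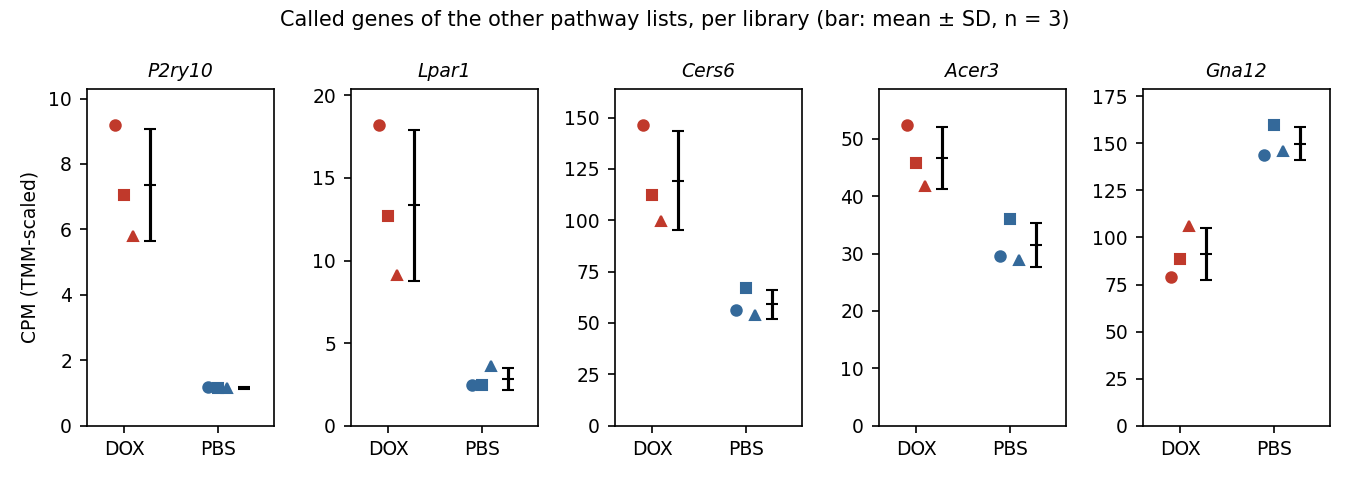
CPM per library of the 5 called genes of the other pathway lists, with DOX in red left of PBS in blue, circle, square and triangle for replicates 1, 2 and 3, and black bars for mean ± SD (n = 3). P2ry10, Lpar1, Cers6 and Acer3 are higher in every DOX library than in any PBS library, and Gna12 is lower.

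Of 25 tested genes that supply ceramide and sphingosine, the substrate of the kinases, edgeR called 2 higher and 0 lower, and DESeq2 2 higher and 3 lower. Cers6, one of the ceramide synthases, had 146, 112 and 99.6 CPM in DOX replicates 1, 2 and 3, against 56.5, 67.1 and 53.8 CPM in PBS replicates 1, 2 and 3. Its log2 fold change was 1.01 with an SE of 0.16 (edgeR adjusted p = 0.0272), and the call ended when DOX replicate 1 or PBS replicate 2 or 3 was left out (edgeR adjusted p = 0.0571, 0.0746 and 0.0964). As given above, no gene of the whole table passed without PBS replicate 2 or 3. Acer3, an alkaline ceramidase that releases sphingosine, averaged 46.6 ± 5.40 CPM in DOX and 31.5 ± 3.86 CPM in PBS (SD, n = 3 each). Its call was marginal, at a log2 fold change of 0.56 with an SE of 0.13 (edgeR adjusted p = 0.0496), and was lost in 11 of 18 alternatives, among them limma-voom and leaving out any library but DOX replicate 3. Degs1, the desaturase that makes ceramide and the most abundant gene of the list per length at 474 FPKM, averaged 798 ± 80.6 CPM in DOX and 981 ± 33.2 CPM in PBS, and Ugcg, a glucosylceramide synthase, 332 ± 47.1 CPM in DOX and 274 ± 26.3 CPM in PBS (SD, n = 3 each, edgeR adjusted p = 0.140 and 0.223). The median log2 fold change of the list was 0.11. Macrophage and lymphocyte marker sums were higher in DOX, as given above, and their part in the values of Cers6 and Acer3 was not tested.

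Of 20 genes of G proteins, their effectors and arrestins that transmit these receptors' signals, edgeR called 0 higher and 1 lower, and DESeq2 3 higher and 5 lower. Gna12, the G12 protein subunit used by S1PR2 and several lysophosphatidic acid receptors, had 79.1, 88.7 and 106 CPM in DOX replicates 1, 2 and 3, against 144, 160 and 146 CPM in PBS replicates 1, 2 and 3. It was 1.64-fold lower, a log2 fold change of -0.72 with an SE of 0.12 (edgeR adjusted p = 0.0290), and the groups did not overlap. That call was lost with the endothelial marker sum as library size (log2 fold change -0.50, edgeR adjusted p = 0.147) and without DOX replicate 1 or 2 or PBS replicate 2 or 3 (edgeR adjusted p from 0.0622 to 0.0957). Leaving out PBS replicate 2 or 3 ended the calls of all genes. Rac1, a small GTPase that acts on the actin cytoskeleton, stood at 196 FPKM and had a log2 fold change of 0.17 (edgeR adjusted p = 0.233).

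The remaining lists held no called gene. Of 12 tested enzymes that make or break down lysophospholipids, 0 were called by edgeR (1 at an unadjusted p under 0.05) or by limma-voom, and 1 was called by DESeq2. Plpp1, a relative of Plpp3 and the most abundant of them at 37.6 FPKM, had 64.9 to 75.4 CPM in DOX and 57.7 to 67.4 CPM in PBS (edgeR adjusted p = 0.389), and Gdpd1, a lysophospholipase D, averaged 60.5 ± 1.31 CPM in DOX and 61.2 ± 2.16 CPM in PBS (SD, n = 3 each, edgeR adjusted p = 0.908). Of the 4 further receptors and carriers of sphingosine 1-phosphate, S1pr4, a receptor of lymphoid and myeloid cells, had 1.29, 0.620 and 0.873 CPM in DOX replicates 1, 2 and 3, against 0.636, 0.811 and 0.455 CPM in PBS replicates 1, 2 and 3 (edgeR adjusted p = 0.411). Apom, the hepatocyte-made carrier of sphingosine 1-phosphate in plasma, had 1.08, 0.507 and 6.69 CPM in DOX replicates 1, 2 and 3, against 0.159, 0.157 and 0.732 CPM in PBS replicates 1, 2 and 3 (edgeR adjusted p = 0.132). DOX replicate 3 was the highest for Apom and also for the hepatocyte marker Alb, which had 346, 116 and 1862 CPM in DOX replicates 1, 2 and 3, against 85.4, 166 and 209 CPM in PBS replicates 1, 2 and 3. The part of hepatocyte RNA in the values of Apom was not tested. In this list 0 of 3 tested genes were called by edgeR (1 at an unadjusted p under 0.05) or by limma-voom, DESeq2 called 1, Apom, as higher in DOX, and S1pr5 was too low to be tested.

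Across 18 alternative settings the members were called in none. The sign of the fold change was the same in each of these for S1pr3, Plpp3, Enpp2 and Lpar6, while that of S1pr1, S1pr2, Sphk1, Sphk2, Sgpl1 and Spns2 turned in at least 1 setting. The scaling moved all genes together, by -0.13 on the log2 scale (median of all genes) with library totals alone and by 0.20 with the endothelial marker sum, and the signs of Sphk2 and Sgpl1 turned with library totals, those of S1pr1, S1pr2 and Spns2 with the endothelial sum.

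**Figure D5:**
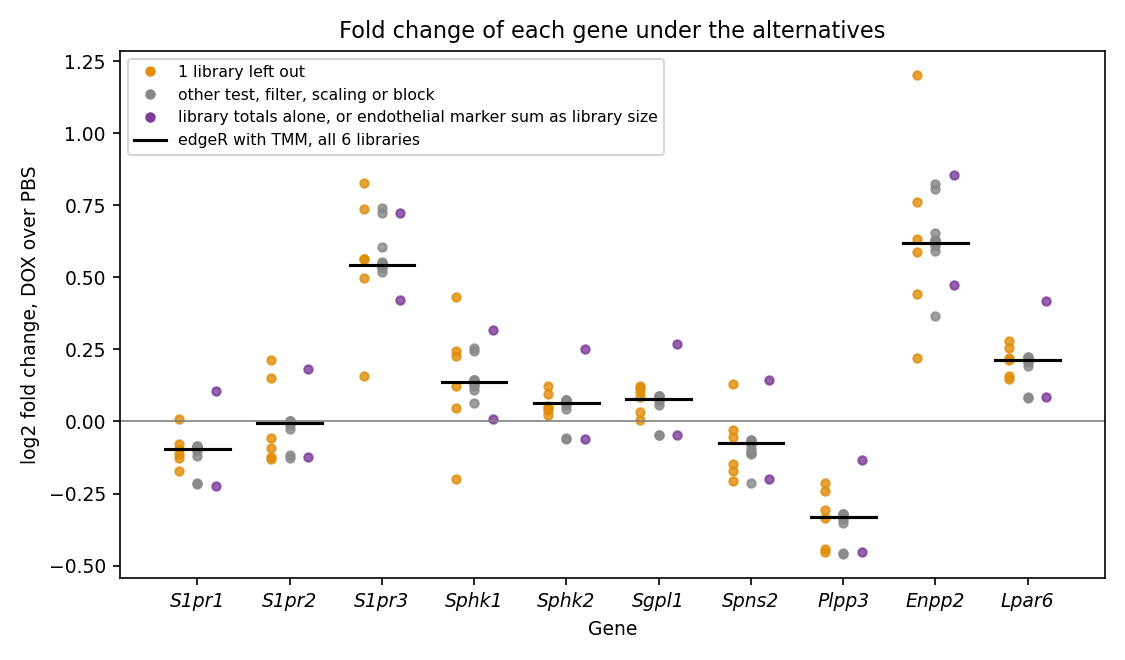
Log2 fold change of DOX over PBS of each gene under the alternatives, as points by kind of setting, with the value from edgeR with TMM factors and all libraries as a black line. S1pr3, Enpp2 and Lpar6 stay above 0 and Plpp3 below 0 in all settings, while Enpp2 spans 0.22 to 1.20 and Sphk1 -0.20 to 0.43 as single libraries are left out.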

How the data were processed

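The data are RNA-seq libraries of mouse primary hepatic stellate cells, 3 labelled DOX and 3 labelled PBS, with groups and replicate numbers taken from the sample titles. Per the labels' protocols, an RNeasy kit was used for RNA and a SMARTER mRNA-Seq kit for the libraries. The submitters' processing notes name the builds GRCm38, mm10 and hg38 without a role. The aligner, the counter and its strand setting are not given in the sources used. The authors deposited raw read counts for 22905 symbols and FPKM for the same genes, without pooling. Of the nonzero FPKM values the authors deposited, 100% equalled the count per library total times a factor constant for each gene (relative tolerance 1e-04). Gene lengths did not enter this check. Both tables are therefore one measurement. Replicates of a group differed by a chi-square of 41.6 to 88.5 per degree of freedom, which leaves no repeated library.

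The main test was edgeR 4.0.16 (R 4.3.3) quasi-likelihood on the counts, two-sided, with TMM factors (0.923 to 1.06), group as the only term, all 6 libraries and filterByExpr (minimum count 10, minimum total 15), which left 14439 genes. Every adjusted p is by Benjamini-Hochberg over all genes tested, with a threshold of 0.05. SEs were derived from the F statistic and the 95% intervals from these SEs with the fit's total degrees of freedom. CPM uses TMM-scaled library sizes, in which 1 read was worth 0.0253 to 0.0293 CPM, and values after ± are SDs. Intervals cover the spread between these libraries. The code was tested on simulated counts.

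The members and lists were chosen with earlier results of these data known, so no p over the list is given. The named genes were the members, Bche, up to 4 called and the 2 most abundant genes per length of each pathway list, and the defining markers of other cell types. A gene that this rule also takes is not reported here. Others are marked as chosen after their values were seen. Of the 76 listed pathway genes, 73 were in the table, and Sptlc3, Cers1 and Acer1 were not analysed here. Alternatives were upper-quartile or RLE factors, library totals alone, the summed endothelial markers as library size, no filter, 5 CPM in 3 libraries, DESeq2 1.42.0, limma-voom (limma 3.58.1), limma on log2(FPKM + 1) and on log2(FPKM + 0.1), a robust fit, a fit with replicate number as a block, and leaving out each library in turn. Positions come from GENCODE M21 and upstream sequences from RefSeq, both on GRCm38.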

Additional observations from a re-analysis of the deposited data

How the results depend on the processing

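No member was called under any of the 18 alternatives, with log2 fold changes that kept their sign in 162 of 179 values computed and at most 2 members at an unadjusted p under 0.05 in any setting (Spns2 did not pass the filter of 5 CPM in 3 libraries). Without PBS replicate 2 or 3 the whole table held no called gene, so the lack of calls there is not particular to the members. The sign turned for S1pr2 with RLE factors (0.0023), the filter of 5 CPM (0.0034), DESeq2 (0.0022) and the endothelial marker sum (0.18), which also turned S1pr1 (0.11) and Spns2 (0.14). Sphk2 and Sgpl1 turned with library totals alone (-0.061 and -0.048), log2(FPKM + 1) (-0.057 and -0.046) and log2(FPKM + 0.1) (-0.060 and -0.047). With each library left out, the log2 fold change ran from -0.13 to 0.21 for S1pr2, from -0.20 to 0.13 for Spns2, from -0.20 to 0.43 for Sphk1 and from -0.17 to 0.0085 for S1pr1. The log2 ratio of Sphk1 to Sphk2, DOX less PBS, of 0.20 ran from -0.23 to 0.51 and that of S1pr2 to S1pr1, of 0.09, from -0.091 to 0.31. The median of all genes moved by -0.125 on the log2 scale with library totals alone and by 0.199 with the endothelial marker sum. It moved by -0.116 with log2(FPKM + 1) and by -0.126 with log2(FPKM + 0.1). The cause of the turns under other settings was not tested.

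Over all genes, DESeq2 called 2658 and edgeR 926, and edgeR called between 0 and 1090 with each library left out, with 0 without PBS replicate 2 or 3 (3294 and 3092 genes at an unadjusted p under 0.05), 85 without DOX replicate 1 and 438 without DOX replicate 2. By library totals alone 611 were higher and 730 lower, against 632 and 294 with TMM factors. By log2(FPKM + 1) and log2(FPKM + 0.1), 423 and 494 were higher and 402 and 464 lower. With the endothelial marker sum 1101 were higher and 36 lower. With the replicate number as a block, 781 genes and 0 members were called. Same-numbered libraries deviated together with r = 0.084, -0.106 and 0.198, not every library correlated best with its own number, and the numbers were not taken to pair the samples, while the block ended the call of Acer3 (edgeR adjusted p = 0.0682). With 3 libraries a group, the 95% intervals of S1pr3 and Enpp2 allow changes of up to 2.85-fold and 3.42-fold.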
